A study of Rattus norvegicus with 6 samples.

Results

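The genes described here carry glucose carbon into and through glycolysis, on to lactate or into the mitochondrion, together with the creatine kinase genes that buffer ATP. They were chosen as a list of 35 symbols, and rows of the deposited table were matched by exact symbol. Of these, 34 were found among 35790 genes, none with more than 1 row, and Ckmt1 was the symbol without a match. RNA sequencing had been carried out on outer hair cells of postnatal day 9 wild-type Sprague-Dawley rats, the electromotile sensory cells of the cochlea. Cells of the basal turn, the high-frequency end, gave 3 libraries, and cells of the apical turn, the low-frequency end, gave 3. For each, 30 single cells were collected by hand after collagenase digestion, and no group received another treatment. Whether the libraries stem from different animals is not stated, and the p-values therefore reflect only variation among the libraries, part of which may be technical.

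Glycolysis splits glucose into pyruvate in the cytosol and yields a small amount of ATP without oxygen. Lactate dehydrogenase exchanges pyruvate with lactate: the enzyme built from A subunits, encoded by Ldha, is typical of tissues that make lactate, and that built from B subunits, encoded by Ldhb, of tissues that use it. Alternatively, pyruvate passes the inner mitochondrial membrane through the carrier formed by Mpc1 and Mpc2 and is oxidised by the pyruvate dehydrogenase complex, which the Pdk kinases switch off. Sensory hair cells need ATP for ion pumping and transmitter release, and basal outer hair cells are known to be the more vulnerable to noise and ototoxic drugs.

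Promoters of the 3 members with the smallest p (Mpc1, Ldhb and Pdhb) and of Ldha, the partner of Ldhb, are shown so that the sequence can be read beside the expression values that follow. Each is RefSeq sequence of assembly GRCr8, 5′ to 3′, from 250 bases before to 50 after the annotated gene start. Capitals mark ACGTG and GCGTG on either strand, the core letters bound by hypoxia-inducible factors, of which Ldha is a classical target in mammals. The windows are chr1:106507842-106508141 on the plus strand for Ldha, chr4:177177359-177177658 on the minus strand for Ldhb, chr1:54996909-54997208 on the minus strand for Mpc1 and chr15:19182539-19182838 on the plus strand for Pdhb.
Ldha: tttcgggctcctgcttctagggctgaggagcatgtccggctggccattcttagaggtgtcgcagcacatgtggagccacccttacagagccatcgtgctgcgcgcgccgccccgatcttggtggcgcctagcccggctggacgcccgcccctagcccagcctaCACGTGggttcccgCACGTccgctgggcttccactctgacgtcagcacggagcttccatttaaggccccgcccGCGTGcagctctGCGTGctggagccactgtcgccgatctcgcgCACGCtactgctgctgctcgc
Ldhb: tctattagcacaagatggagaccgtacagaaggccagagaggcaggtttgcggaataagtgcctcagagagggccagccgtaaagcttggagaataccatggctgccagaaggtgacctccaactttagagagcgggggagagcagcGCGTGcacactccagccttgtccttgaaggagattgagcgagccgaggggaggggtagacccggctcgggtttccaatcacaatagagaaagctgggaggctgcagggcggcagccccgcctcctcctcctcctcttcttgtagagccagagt
Mpc1: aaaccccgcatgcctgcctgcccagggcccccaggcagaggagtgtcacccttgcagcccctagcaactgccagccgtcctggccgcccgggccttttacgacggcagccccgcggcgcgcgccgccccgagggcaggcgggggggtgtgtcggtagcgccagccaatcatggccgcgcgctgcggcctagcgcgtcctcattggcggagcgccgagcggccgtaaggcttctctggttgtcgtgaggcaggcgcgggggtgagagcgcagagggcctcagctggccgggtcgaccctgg
Pdhb: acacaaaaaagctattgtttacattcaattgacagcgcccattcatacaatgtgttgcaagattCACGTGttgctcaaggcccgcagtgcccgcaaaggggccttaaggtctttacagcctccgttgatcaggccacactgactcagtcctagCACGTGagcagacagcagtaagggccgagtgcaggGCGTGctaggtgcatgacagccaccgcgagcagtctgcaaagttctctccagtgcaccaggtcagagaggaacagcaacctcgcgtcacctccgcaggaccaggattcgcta
The Ldha window held 3 matches to ACGTG and 3 to GCGTG, and the Pdhb window 4 and 1, where the palindrome CACGTG counts on each strand. The Ldhb window held 1 match to GCGTG and none to ACGTG, and the Mpc1 window held neither. Of all 33469 promoter windows of this length, 41.6% held at least 1 of the motifs, and 21 of the 29 members with a single promoter entry did (72.4%). Such matches describe letters in a window and not binding.

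Between 16511675 and 23140976 gene counts were recorded per library, and a count of 0 allows up to 3 counts, which is 0.130 to 0.182 CPM (counts scaled to library total). Levels of different genes are compared in FPKM, the authors' counts scaled by gene length and library total. All 15 outer hair cell markers found were detected in both groups, with summed shares of 0.849% to 6.68% of counts in basal and 2.17% to 4.14% in apical libraries. Of the 14 tested, 4 were higher in basal libraries, and their median log2 fold change was -1.54. Markers of Schwann cells, the myelinating cells of nerve, took 0.360%, 3.75% and 2.55% of counts in basal replicates 1, 2 and 3, against 0.0415% to 0.0937% in apical libraries, and all 13 of 13 were higher in basal libraries. Outer hair cell markers took 6.68%, 2.26% and 0.849% in the same basal libraries. Other summed shares were 0.0242% to 0.203% in basal against 0.00395% to 0.00763% in apical libraries for macrophages, 0.246% to 1.14% against 0.0177% to 0.152% for red blood cells and 0.0866% to 2.54% against 0.265% to 0.398% for fibrocytes and bone. For neurons they were 0.0345% to 0.0787% in basal against 0.0191% to 0.0313% in apical libraries, for supporting cells 0.00840% to 0.0551% against 0.0184% to 0.0705%, and for endothelium 0.00652% to 0.0292% against 0.00178% to 0.0272%. The part of these cells in the results below was not tested. In such libraries, fewer cells of a type and less RNA per cell cannot be told apart.

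Transcript levels within the pathway ranged widely. Of the 34 genes, 13 had a mean of at least 100 FPKM over the 6 libraries, 10 had 10 to 100, 6 had 1 to 10 and 5 less than 1. The highest means were those of Ldhb (1921 FPKM), Gapdh (1634), Mpc2 (893), Ldha (836), Ckb (686), Eno1 (654), Aldoa (530.2) and Mpc1 (337). Together the members took 0.704%, 0.926% and 1.31% of all counts in basal replicates 1, 2 and 3, against 1.13%, 1.25% and 1.80% in apical replicates 1, 2 and 3, so the groups overlapped.

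**Figure D1:**
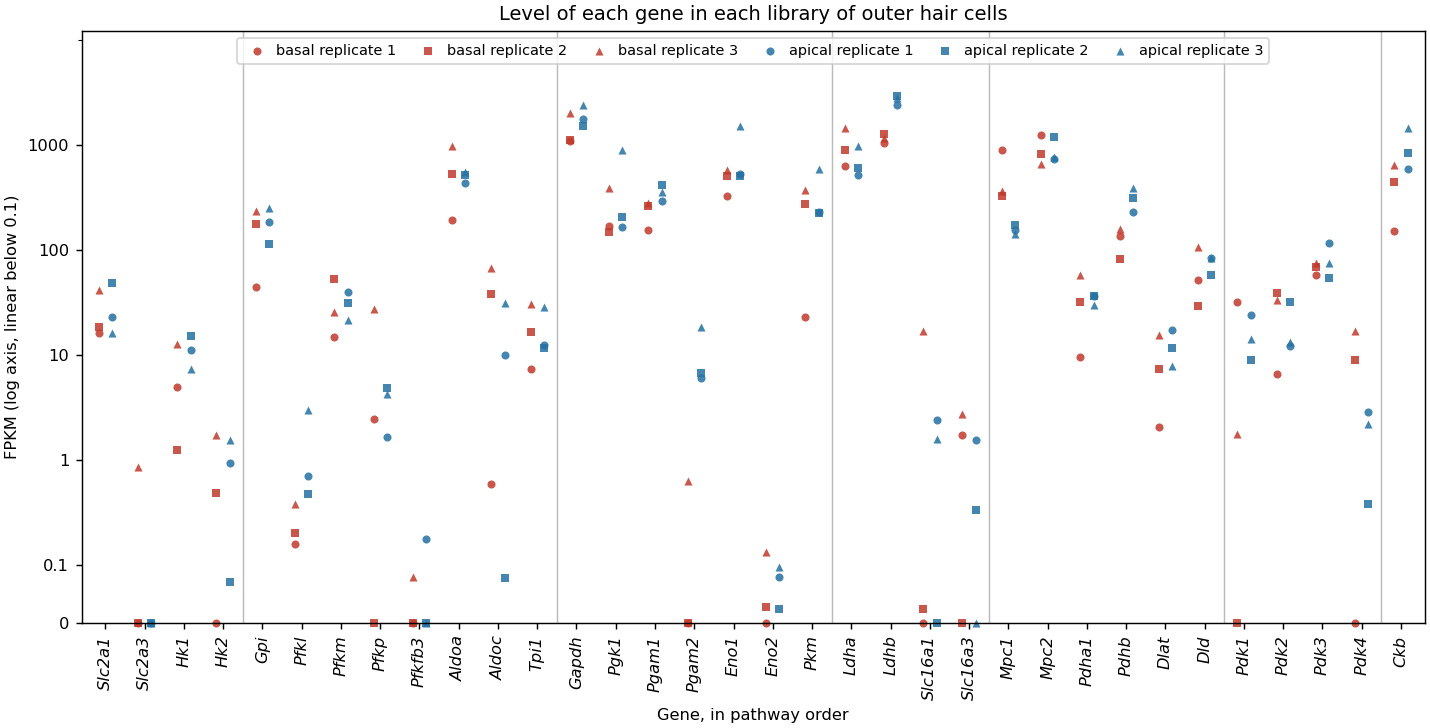
FPKM of each of the 34 genes in every library, in pathway order with grey lines between steps, on an axis that is logarithmic above 0.1. Red symbols are basal and blue symbols apical libraries, with replicates 1, 2 and 3 as circles, squares and triangles; Ldhb and Mpc1 show separate groups, while Pkm, Aldoa and Gpi have basal replicate 1 far below the other libraries.

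Basal cells were set against apical cells to find differences in expression along the cochlea. The members of smallest p by edgeR were Mpc1, higher in basal cells, and Ldhb and Pdhb (a pyruvate dehydrogenase subunit), lower. None of them passed after adjustment. In edgeR's quasi-likelihood fit 0 of the 31 members tested passed a Benjamini-Hochberg adjusted p of 0.05, as did 0% of the 13507 genes. At an unadjusted p under 0.05, 1 of 31 members was higher in basal libraries (Mpc1), where 2.12% of all genes were. Lower were 2 of 31 (Ldhb and Pdhb), where 3.88% of all genes were. Counts so small do not set the list apart from all genes. DESeq2 called Mpc1 as higher and Ldhb as lower, where it called 2.69% of all genes, 1.18% as higher and 1.51% as lower. With no filter on low counts before its fit it called Ldhb alone of the members, and 663 of 35790 genes in all. In counts simulated from edgeR's own dispersion estimates DESeq2 called more unchanged genes than its threshold allows, which edgeR did not. Because the simulation follows edgeR's model it cannot rank the tests or show which calls are true. Calls by DESeq2 alone are read with caution, as edgeR did not pass them. The bias-adjusted quasi-likelihood test called no member and 0.207% of all genes, 0.155% as higher and 0.0518% as lower. No member was called by weighted limma-voom or by limma on FPKM, and the lowest adjusted p for a member in the authors' deposited table was 0.926, for Pgam2.

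Across the list, 19 of 31 members were lower and 12 higher in basal libraries, where 51.0% of all genes tested were lower and 49.0% higher. The median log2 fold change of basal over apical was -0.19, beside -0.02 for all genes. Without basal replicate 2 the list's median turned to 0.05, and without basal replicate 3 it was -0.71. Libraries of the groups did not overlap in 5 members lower in basal cells (Pfkl, Pgam1, Pgam2, Ldhb and Pdhb, against 11.3% of all genes) and in 1 higher, Mpc1 (against 4.74%). The untested members were Slc2a3, Pfkfb3 and Eno2, which had too few counts, and those tested include genes retained because 1 group was high. Basal replicate 1 was the lowest of the 6 libraries for 18 of the 31 members, and basal replicate 3 the highest for 11. Ranks over all genes were not counted, so these cannot be called particular to the members. Genes with at least 1 count numbered 11880, 11244 and 15668 in basal replicates 1, 2 and 3. Apical replicates 1, 2 and 3 had 16333, 13094 and 15915.

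**Figure D2:**
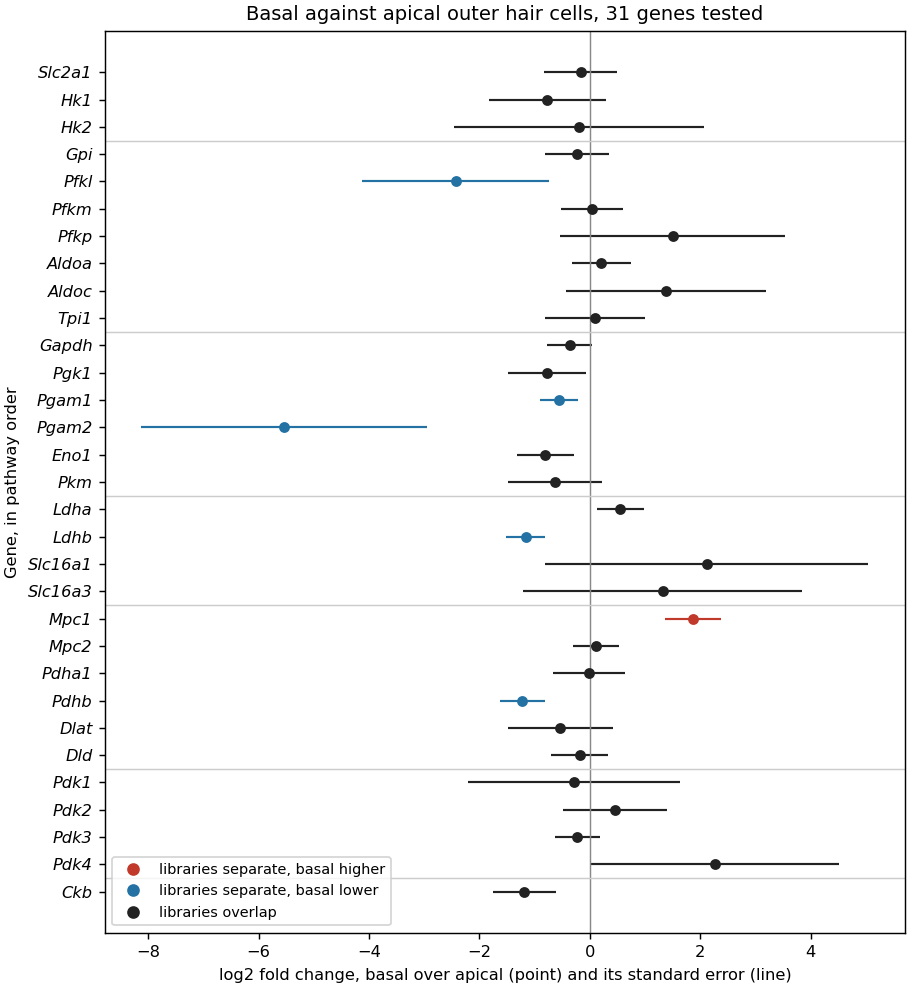
Log2 fold change of basal over apical (points) with its standard error (lines) from edgeR's quasi-likelihood fit for the 31 members tested, in pathway order with grey lines between steps. Red and blue mark genes whose basal and apical libraries did not overlap; Mpc1 lies at 1.87 and Ldhb at -1.16 with narrow errors, and Pgam2 at -5.54 with a wide one.

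Glucose enters through transporters of the Slc2a family and is trapped by hexokinase. Slc2a1, the widely expressed transporter GLUT1, had 16.2, 18.4 and 40.9 FPKM in basal replicates 1, 2 and 3, against 23.02, 48.3 and 16.03 FPKM in apical replicates 1, 2 and 3. The ranges overlapped almost fully, with a log2 fold change of -0.16 (SE 0.66). Slc2a3, the high-affinity neuronal transporter, had 40 counts in basal replicate 3 and 0 in each of the other libraries, so Slc2a1 held 98.0% to 100% of the pair's FPKM in every library. Hk1, the hexokinase of brain and most other tissues, had 4.93, 1.22 and 12.6 FPKM in basal libraries, against 11.1, 15.2 and 7.23 FPKM in apical libraries. Hk2, the insulin-responsive form, stayed at or below 1.70 FPKM in every library. The Hk1 share of the pair averaged 86.6% ± 14.2 in basal and 91.5% ± 8.48 in apical libraries (SD, n = 3 each), a difference smaller than the spread.

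In upper glycolysis the muscle form of phosphofructokinase, the main control point, led in both groups except in basal replicate 3. Pfkm, that muscle form, had 14.6, 52.8 and 25.4 FPKM in basal replicates 1, 2 and 3, against 39.2, 31.2 and 21.4 FPKM in apical replicates 1, 2 and 3, with a log2 fold change of 0.04 (SE 0.55). Pfkp, the platelet form, had 26.9 FPKM in basal replicate 3, 2.41 and 0 in basal replicates 1 and 2, and 1.65 to 4.85 FPKM in apical libraries. Its share of the phosphofructokinase FPKM was thus 51.1% in basal replicate 3, where outer hair cell markers were lowest, and at most 14.6% elsewhere. The part of other cells in that share was not tested. Pfkl, the liver form, had 0.157, 0.198 and 0.376 FPKM in basal libraries, against 0.699, 0.468 and 2.97 FPKM in apical libraries. Those groups did not overlap, though its counts were only 8, 9 and 21 in basal and 44, 24 and 189 in apical libraries (log2 fold change -2.43, SE 1.69; edgeR adjusted p = 1.00). Pfkfb3, which makes the activator of phosphofructokinase, had 4 counts in basal and 10 in apical libraries in all.

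Gpi, the isomerase that feeds phosphofructokinase, had 44.3, 175 and 233 FPKM in basal libraries, against 181, 113 and 248 FPKM in apical libraries. Aldoa, the aldolase that splits the hexose, had 193, 520 and 975 FPKM in basal libraries, against 435, 513 and 545 FPKM in apical libraries. Apical libraries lay close together for Aldoa while basal ones were widely spread, and neither gene differed beyond that spread (log2 fold changes -0.24, SE 0.58, and 0.21, SE 0.53). Aldoc, the brain aldolase, had 0.580, 37.6 and 67.3 FPKM in basal libraries, against 9.81, 0.0767 and 31.1 FPKM in apical libraries. Aldoa held at least 93.3% of the pair's FPKM in every library. Tpi1, which interconverts the triose phosphates, had 7.24 to 30.4 FPKM in basal and 11.6 to 28.25 FPKM in apical libraries. That low level is uncertain, because a row named triosephosphate isomerase-like held 39.6% to 57.5% as many counts, and reads of such copies can be split between rows or lost.

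Lower glycolysis, from Gapdh to Pkm, was lower in basal libraries in all 6 members tested, with a median log2 fold change of -0.70, and none passed by edgeR or DESeq2. All 6 kept that sign under each scaling. Without apical replicate 3 the median was -0.14 and 5 of 6 were lower. Gapdh, which reduces NAD in the pathway and is often used as a reference gene, had 1084, 1113 and 1979 FPKM in basal libraries, against 1735, 1510 and 2382 FPKM in apical libraries (log2 fold change -0.37, SE 0.40). Its groups overlapped through basal replicate 3. Eno1, the ubiquitous enolase, had 322, 499 and 572 FPKM in basal libraries, against 520, 503 and 1511 FPKM in apical libraries. Pgk1, the first ATP-forming kinase of the pathway, had 169, 146 and 383 FPKM in basal libraries, against 162, 206 and 881 FPKM in apical libraries. Both means rested on apical replicate 3: without it the log2 fold change moved to -0.10 for Eno1 and 0.38 for Pgk1, against -0.80 (SE 0.51) and -0.77 (SE 0.71) with all libraries. The neuronal enolase Eno2 had at most 6 counts in any library.

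Pgam1, the general phosphoglycerate mutase, had 155, 259 and 278 FPKM in basal libraries, against 290.2, 414 and 350.4 FPKM in apical libraries. Every basal library was below every apical one, at -0.56 on the log2 scale (SE 0.35; edgeR adjusted p = 1.00). Pgam2, the muscle form, had 0, 0 and 11 counts in basal replicates 1, 2 and 3, against 120, 107 and 366 counts in apical replicates 1, 2 and 3. On the FPKM scale that is 0, 0 and 0.622 in basal and 6.03, 6.60 and 18.2 in apical libraries, so basal libraries were at or near the counting floor and apical ones were low too. The fitted log2 fold change of -5.54 (SE 2.58, edgeR adjusted p = 0.906, DESeq2 adjusted p = 0.220) depends on the prior count where libraries are at 0. Of the 7 striated muscle markers, Mb, Ckm, Tnnt3 and Tnni2 were at 0 in every library, and the list's summed share was 0.00299% to 0.00521% in basal against 0.000430% to 0.000895% in apical libraries, where Pgam2 was higher in apical libraries. Only 3 of these markers had enough counts to be tested, and the part of muscle cells was not tested. Pgam1 held 99.8% to 100% of the pair's FPKM in basal and 95.1% to 98.4% in apical libraries.

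Pkm, the pyruvate kinase that ends glycolysis, had 22.6, 270 and 369 FPKM in basal libraries, against 229, 221 and 588 FPKM in apical libraries. Basal replicate 1 stood an order of magnitude below the other libraries, and the log2 fold change was -0.63 (SE 0.85), or -0.04 without that library. A row named M2 pyruvate kinase-like held 15.9% to 63.4% as many counts as Pkm, so the Pkm level is uncertain. The table counts Pkm per gene, so its muscle and embryonic splice forms were not separated.

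Lactate dehydrogenase showed the most regular difference of the list, a change in the balance of its subunits. Ldhb had 1036, 1258 and 1164 FPKM in basal replicates 1, 2 and 3, against 2405, 2916 and 2747 FPKM in apical replicates 1, 2 and 3. The groups were far apart and each was tight, with means of 1153 ± 111 FPKM in basal and 2690 ± 260 FPKM in apical libraries (SD, n = 3 each). The log2 fold change was -1.16 (SE 0.35, adjusted p = 0.438 by edgeR's quasi-likelihood test), and DESeq2 called it (adjusted p = 0.0100, or 0.00925 with no filter before the fit). It lay between -1.25 and -1.11 with any library left out and was -1.17 with basal replicate 1 alone against the apical libraries. In that fit the Schwann cell share of the remaining basal library was 0.360%, and the outer hair cell share was 6.68%. Schwann cell shares of apical libraries were lower, at 0.0415% to 0.0937%, and the part of these cells was not tested.

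Ldha had 620, 887 and 1431 FPKM in basal libraries, against 512, 595 and 968 FPKM in apical libraries. Those groups overlapped, and the log2 fold change of 0.55 (SE 0.43) did not pass (adjusted p = 1.00 by edgeR's quasi-likelihood test). With basal replicate 1 alone against the apical libraries it was 0.05. Ldha therefore made up 37.4%, 41.4% and 55.1% of the FPKM of both genes in basal libraries, against 17.6%, 16.9% and 26.05% in apical libraries. The shares did not overlap, averaging 44.6% ± 9.31 in basal and 20.2% ± 5.09 in apical libraries (SD, n = 3 each), and the mean difference of 24.5 percentage points was 19.2 to 28.1 with any library left out. The ratio of Ldhb to Ldha FPKM was 1.67, 1.42 and 0.813 in basal and 4.69, 4.90 and 2.84 in apical libraries, so basal replicate 3 was the only library with more Ldha than Ldhb. The highest Ldha shares in the basal group went with the lowest outer hair cell shares (6.68%, 2.26% and 0.849% in replicates 1, 2 and 3). Apical replicate 3 likewise had the highest Ldha share and the lowest outer hair cell share (2.17%) of its group. Basal replicate 1 exceeded every apical library in both shares, and also in its Schwann cell share (0.360% against 0.0415% to 0.0937%). The part of other cells was not tested. In the deposited table Ldhb lies on chromosome 4 from 176701983 to 176720012 and Ldha on chromosome 1 from 102900286 to 102909707, on a build that the sources do not name.

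**Figure D3:**
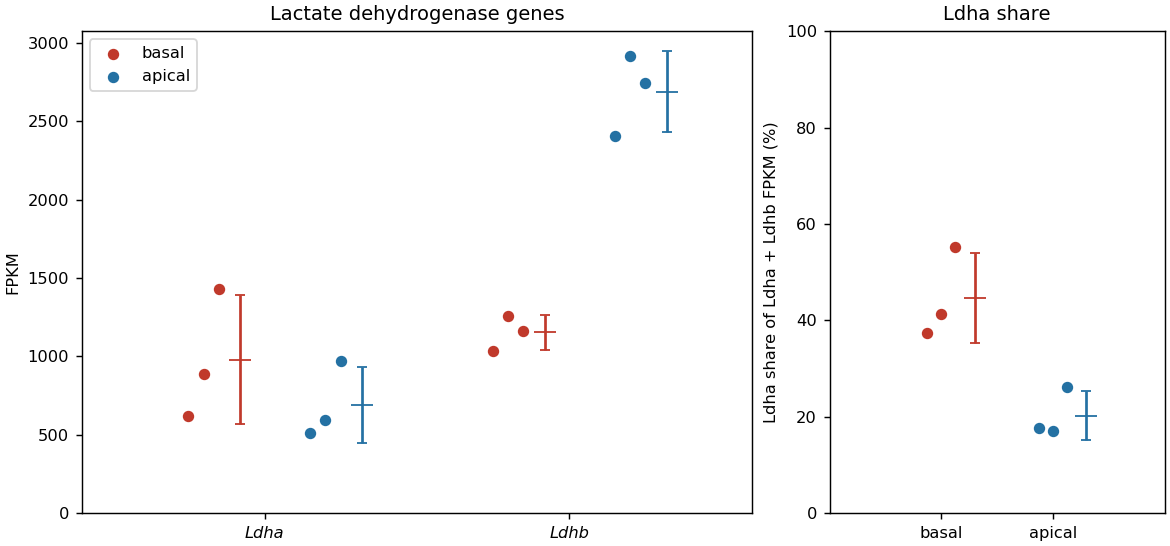
FPKM of Ldha and Ldhb (left) and the Ldha share of their summed FPKM in percent (right) for each basal (red) and apical (blue) library, with the mean as a bar and the SD as a whisker (n = 3 each). Basal Ldhb lies between 1036 and 1258 FPKM and apical Ldhb between 2405 and 2916 FPKM, while the Ldha values of the groups overlap.

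The monocarboxylate transporters that move lactate across the plasma membrane were low and irregular. Slc16a1, which encodes MCT1, had 0, 0.0244 and 16.9 FPKM in basal libraries, against 2.38, 0 and 1.58 FPKM in apical libraries. Slc16a3, which encodes MCT4, had 1.70, 0 and 2.72 FPKM in basal libraries, against 1.54, 0.333 and 0 FPKM in apical libraries. Both overlapped, and the sign for Slc16a1 turned to -6.50 without basal replicate 3. Their accessory subunits Emb (embigin) and Bsg (basigin) are not members and were far more abundant. Emb had 152, 263 and 158 FPKM in basal libraries, against 528, 366 and 308 FPKM in apical libraries, with separate groups and a difference of -1.02 on the log2 scale (SE 0.38; edgeR adjusted p = 0.655). Bsg, chosen after its values were seen, had 297, 706 and 961 FPKM in basal libraries, against 966, 1192 and 1051 FPKM in apical libraries. Its groups were separate, though basal replicate 3 came close to the apical range (log2 fold change -0.67, SE 0.45; edgeR adjusted p = 1.00).

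At the mitochondrial membrane the subunits of the pyruvate carrier went separate ways. Mpc1 had 882, 321 and 358 FPKM in basal replicates 1, 2 and 3, against 154, 171 and 139 FPKM in apical replicates 1, 2 and 3. Every basal library lay above every apical one, and basal replicate 1 was the highest. The log2 fold change was 1.87 (SE 0.52, adjusted p = 0.438 by edgeR's quasi-likelihood test), and DESeq2 called it (adjusted p = 0.0298, or 0.0680 with no filter before the fit). Without basal replicate 1 it was 1.15, and with that library alone against the apical ones 2.72, an effect size without basal replication. Basal replicate 1 had the highest outer hair cell and the lowest Schwann cell share of the basal libraries. That Schwann cell share of 0.360% was still above the 0.0415% to 0.0937% of apical libraries, and the part of these cells was not tested. Mpc2, the partner of Mpc1 without which the carrier does not form, had 1226, 811 and 656 FPKM in basal libraries, against 733, 1170 and 760 FPKM in apical libraries. Those groups overlapped, with a log2 fold change of 0.11 (SE 0.41). Mpc2 exceeded Mpc1 in every library, and in the deposited table Mpc1 lies on chromosome 1 from 53026608 to 53038229.

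Inside the mitochondrion, the members of the pyruvate dehydrogenase complex were Pdhb, Pdha1, Dlat and Dld. Pdhb, the beta subunit of the decarboxylase, had 136, 81.0 and 157 FPKM in basal libraries, against 230, 312 and 383 FPKM in apical libraries. The groups did not overlap, and the log2 fold change was -1.22 (SE 0.41, adjusted p = 0.481 by edgeR's quasi-likelihood test, 0.216 by DESeq2). It lay between -1.40 and -0.95 with any library left out and was -0.98 with basal replicate 1 alone. Pdha1, the alpha subunit that pairs with it, had 9.41, 31.7 and 57.2 FPKM in basal libraries, against 35.8, 36.2 and 29.3 FPKM in apical libraries (log2 fold change -0.02, SE 0.65). Dlat, the acetyltransferase core, and Dld, the dehydrogenase shared with other complexes, overlapped as well, with log2 fold changes of -0.54 (SE 0.95) and -0.19 (SE 0.51). Levels within the complex were unequal in every library, with Pdhb above Pdha1 and Dlat lowest of the 4. Pdhx, which tethers Dld to the complex, is no member and was chosen after its values were seen. It had 27.1, 47.4 and 35.0 FPKM in basal libraries, against 21.1, 24.9 and 25.0 FPKM in apical libraries, so its groups were separate in the opposite direction to Pdhb (log2 fold change 0.67, SE 0.49; edgeR adjusted p = 1.00).

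**Figure D4:**
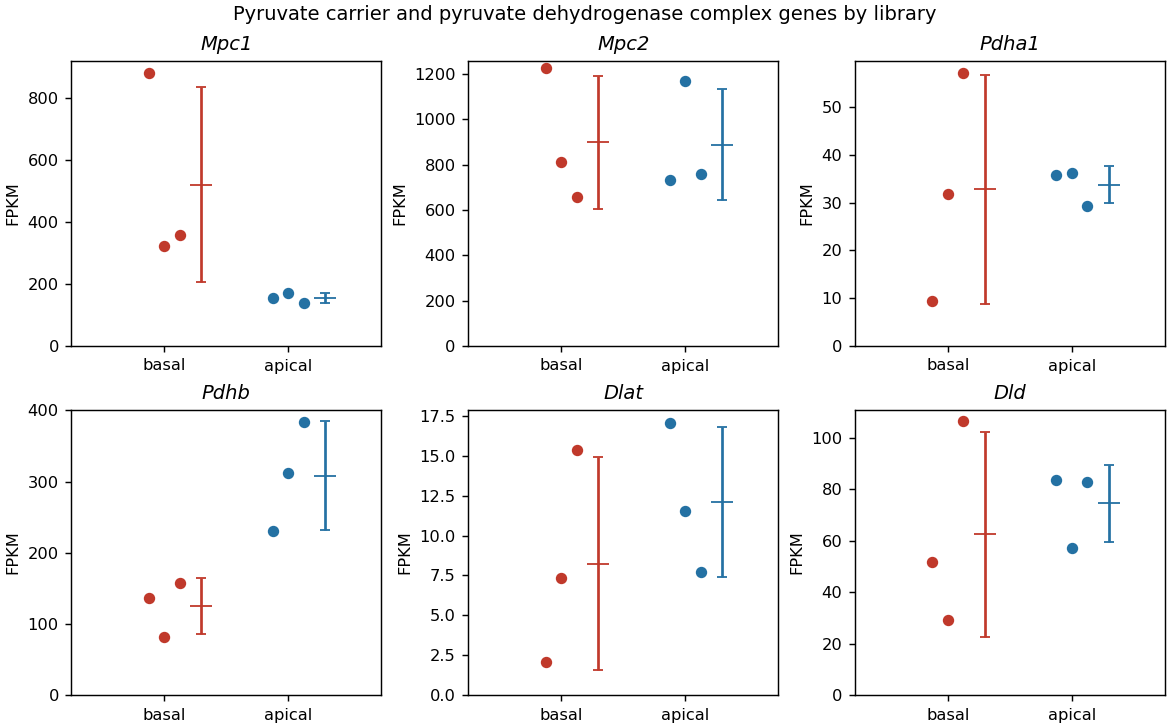
FPKM of the pyruvate carrier genes Mpc1 and Mpc2 and of the pyruvate dehydrogenase complex genes Pdha1, Pdhb, Dlat and Dld in each basal (red) and apical (blue) library, with the mean as a bar and the SD as a whisker (n = 3 each, every axis from 0). Mpc1 is at 321 FPKM or more in basal and 171 or less in apical libraries, Pdhb at 157 or less in basal and 230 or more in apical libraries, and the other 4 genes overlap.

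Of the kinases that inactivate the complex, Pdk3 led in both groups. Pdk3 had 56.9, 68.0 and 75.1 FPKM in basal libraries, against 117, 53.2 and 73.8 FPKM in apical libraries, and it made up 59.0% to 59.8% of the kinases' FPKM in basal and 56.4% to 75.0% in apical libraries. Pdk1, a hypoxia-induced form, had 31.7, 0 and 1.75 FPKM in basal libraries, against 24.0, 8.84 and 14.0 FPKM in apical libraries. Pdk4, which is induced by fasting in muscle, had 0, 8.89 and 16.8 FPKM in basal libraries, against 2.81, 0.376 and 2.17 FPKM in apical libraries. Pdk4 was at 0 in the basal library richest in outer hair cell markers and highest in the one with least. In apical libraries it was lowest in the richest (replicate 2) but not highest in the one with least (replicate 3). The part of other cells was not tested. Pdk2 had 6.55 to 38.3 FPKM in basal and 12.1 to 31.9 FPKM in apical libraries. None of the kinases differed beyond its spread, with log2 fold changes from -0.30 (SE 1.92) for Pdk1 to 2.27 (SE 2.25) for Pdk4.

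Ckb, the cytosolic brain-type creatine kinase that buffers ATP, was the creatine kinase member in the table. It had 151, 442 and 642 FPKM in basal libraries, against 587, 840.0 and 1451 FPKM in apical libraries. Only basal replicate 3 reached into the apical range, and the log2 fold change of -1.19 (SE 0.57) did not pass (adjusted p = 0.931 by edgeR's quasi-likelihood test). The row Ckmt1b, described in the table as mitochondrial creatine kinase and examined after the missing symbol was seen, had 151, 74.4 and 43.6 FPKM in basal libraries, against 55.3, 70.0 and 31.5 FPKM in apical libraries. Its log2 fold change was 0.89 (SE 0.61), and its groups overlapped.

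Around the core list, 110 further genes of sugar transport, glycogen, the pentose phosphate route, NADH shuttles and the tricarboxylic acid cycle were found, of which 88 were tested. Of these, 64 were lower and 24 higher in basal libraries, with a median log2 fold change of -0.45, against -0.02 for all genes. The number lower was 62 to 66 under the other scalings and 56 to 66 with any library left out. None passed by edgeR. At an unadjusted p under 0.05, 2 of the 88 were higher and 4 lower, shares close to the 2.12% and 3.88% of all genes, and DESeq2 called 1 as higher and 1 as lower, close to its 1.18% and 1.51%. All 9 NADH shuttle genes tested were lower under each scaling (median -0.47), though 7 of 9 without apical replicate 1. Also lower were 11 of 16 of the tricarboxylic acid cycle (median -0.25), 11 of 17 of glycogen (median -0.43) and 4 of 7 of the pentose phosphate route (median -0.22). Without basal replicate 1 the tricarboxylic acid cycle had 8 of 16 lower and the pentose phosphate route 3 of 7, and the pentose phosphate route also had 3 of 7 without apical replicate 3. Of the remaining lists, 10 of 13 transport genes, 9 of 10 other glycolytic genes, 6 of 9 pyruvate genes, 3 of 4 gluconeogenic genes and 1 of 3 creatine genes were lower. The smallest p was that of Slc37a4, which carries glucose 6-phosphate into the endoplasmic reticulum. It had 29.1, 40.1 and 31.2 FPKM in basal replicates 1, 2 and 3, against 122, 115 and 124 FPKM in apical replicates 1, 2 and 3. The groups were far apart and tight, at -1.79 on the log2 scale (SE 0.34; edgeR adjusted p = 0.438, DESeq2 adjusted p = 0.000123).

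Slc2a5, a fructose transporter that is also a marker of microglia, was the other gene DESeq2 called, with 109, 552 and 101 counts in basal and 0 in every apical library. It was kept by the filter on low counts only through the basal group where it was high, so that call is no independent support. Macrophage markers were higher in basal libraries in 11 of 11 cases. The part of macrophages in the Slc2a5 counts was not tested. Ugp2, which makes the glucose donor for glycogen, had 52.5, 54.0 and 36.8 FPKM in basal libraries, against 108, 88.1 and 100.3 FPKM in apical libraries (log2 fold change -0.97, SE 0.38). The malic enzymes, which return malate to pyruvate, were ordered oppositely. Me1, the cytosolic form, had 1145, 621 and 198 FPKM in basal libraries, against 312, 198 and 114 FPKM in apical libraries (log2 fold change 1.76, SE 0.71), with overlapping groups and the highest value in basal replicate 1. Me3, a mitochondrial form, had 34.5, 10.96 and 9.02 FPKM in basal libraries, against 46.7, 41.2 and 138 FPKM in apical libraries (log2 fold change -1.91, SE 0.77). Adjusted p by edgeR was 0.711 to 0.760 for these 3 genes, so none passed.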

How the data were processed

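The submitters' processing notes name Bowtie2 2.2.3 and TopHat2 2.0.12. No source used here names the genome build, annotation, counting tool or strand setting. The deposited table holds whole-number counts per gene, per the file headers. It also holds FPKM made by the authors: over the 6694 genes with more than 20 counts in every library, 69.2% equalled the count divided by deposited length and library total, and 100% were a constant multiple of it per gene (relative tolerance 1e-06), as were 21 and all of the 34 members. For Slc2a1, Pgk1 and Pdha1 among others the FPKM thus rests on another length. The log2 fold changes and p-values deposited by the authors were read only where named as theirs, and their mean normalized signal per group was not used.

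Counts were analysed with edgeR 4.0.16 in R 4.3.3 (filterByExpr, TMM scaling, glmQLFit and glmQLFTest with this version's default, Benjamini-Hochberg adjustment over 13507 genes, threshold 0.05). A standard error is the absolute log2 fold change over the root of F. Fold changes are basal over apical. Isoenzyme shares are shares of summed FPKM and carry no test. DESeq2 1.42.0 and limma 3.58.1 gave alternatives. Both edgeR and DESeq2 were run on counts simulated with edgeR's dispersion estimates, which cannot rank the tests. There edgeR kept to its threshold but found few of the smallest changes simulated, and DESeq2 called more unchanged genes than its threshold allows. Those smallest changes were placed in highly expressed genes and exceeded the fold changes of Ldhb, Pdhb and Mpc1. Under that model differences of their size could thus be missed by edgeR, but sizes equal to theirs were not simulated. The simulation therefore does not show why these members did not pass. Tables and plots used pandas 2.3.3 and matplotlib 3.10.9. The 6 libraries were grouped by their titles.

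The members and lists were chosen with earlier results of these data known. All members are accounted for. Values in every library are given for the 10 members of smallest p, the 8 of highest mean FPKM and some further members, with others as ranges, and of the further genes for the 6 of smallest p whose higher group averaged 20 counts or more. Of the wider lists 5 symbols were not matched. Promoters came from RefSeq (GRCr8): 29 members had 1 entry, 3 had more and 2 had none.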

Additional observations from a re-analysis of the deposited data

How the results depend on the processing

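No gene passed by edgeR's main test. That count was 8 with no filter on low counts, 28 with the bias-adjusted test, 0 to 2 with a library left out (2 without basal replicate 1), 289 with basal replicates 2 and 3 left out together, 363 with DESeq2 and, in an alternative chosen after seeing the data, 663 with DESeq2 and no filter before the fit. The count of members was 2 of 31 with DESeq2, 1 of 34 with DESeq2 and no filter, and 0 with any library left out. The members' median was -0.71 to 0.05 with a library left out and -1.10 without basal replicates 2 and 3, where the median over the 13498 genes also tested with all libraries was -0.55. The labels do not say whether the replicate numbers pair the libraries. Deviations of same-numbered libraries from their group means correlated at -0.04, 0.01 and 0.14, and those of other pairs at -0.14 to 0.10. With so few libraries per group these values cannot settle the pairing. With the replicate block the medians were -0.37 for members and -0.38 for all genes, and 0 genes passed. The share of Pgam1 was higher in basal libraries by 1.41 points on counts, against 2.77 on FPKM, and that of Eno1 lower, at -0.0762 points with FPKM + 1. Of 31 members tested, 14 kept their sign in every alternative, Ldhb, Mpc1 and Pdhb among them.

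Signs turned for Slc2a1 with limma-voom (0.21). They turned for Pfkm at -0.061 with the replicate block, -0.13 and -0.14 on log2(FPKM + 1) and log2(FPKM + 0.1) and -0.86 without basal replicates 2 and 3, and for Aldoa at -0.036, -0.10, -0.10 and -1.16 in the same order. Pfkp turned to -0.014 with the block, -1.62 with limma-voom, -0.82 on log2(FPKM + 0.1) and -0.36 without basal replicates 2 and 3. Tpi1 turned to -0.039 and -0.050 on the same FPKM scales and to -1.06 without both basal libraries. Slc16a1 turned to -1.23 with limma-voom, -0.33 on log2(FPKM + 0.1) and -9.04 without both. Pdha1 turned to 0.042 under median-of-ratios scaling and with DESeq2, 0.043 with DESeq2 and no filter, and 0.018 without mitochondrial, ribosomal protein and haemoglobin genes. Without both basal libraries Aldoc turned to -4.34, Pdk1 to 1.23, Pdk2 to -1.34 and Pdk4 to -8.82. With 1 library left out the range was -0.68 to 0.41 for Slc2a1, -1.84 to 0.53 for Hk2, -0.71 to 0.20 for Gpi, -0.51 to 0.37 for Pfkm, -1.36 to 2.09 for Pfkp, -0.46 to 0.61 for Aldoa, -0.51 to 0.61 for Tpi1, -1.31 to 0.38 for Pgk1, -6.50 to 2.88 for Slc16a1, -0.27 to 0.35 for Mpc2, -0.70 to 0.42 for Pdha1, -0.76 to 0.19 for Dld, -4.10 to 0.31 for Pdk1 and -0.47 to 0.12 for Pdk3. The cause was not tested. Few counts limit Pfkl, Hk2, Pfkfb3, Slc2a3, Eno2, Pgam2 and the Slc16a genes.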
